A study of Mus musculus with 15 samples.

Results

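The genes described here lie beside Ikzf2 on mouse chromosome 1: Acadl, Lancl1, Rpe, Kansl1l, Bard1, Spag16 and Atic. They were taken by symbol from the platform annotation, with every probe set that carried that symbol alone, which gave 7 genes and 9 probe sets of 19938 genes and 35556 probe sets in all. Acadl and Lancl1 were selected on their measured values in the dKO arrays, so their dKO values are a description, and any count of calls on those contrasts supports nothing about them. The question was whether signal shifts near Ikzf2 followed the targeted locus.

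The series holds 15 arrays of CD4+CD25+ (Treg) cells sorted from mouse spleen, a gate that takes regulatory T cells. The dKO group (Ikzf2-/-Ikzf4-/-, lacking both Helios and Eos) had 3 arrays, Ikzf4-/- (lacking Eos) had 3, Ikzf2-/- (lacking Helios) had 3, and WT had 6, numbered 1 to 6. The labels give no age, strain, allele or treatment, and do not say that the arrays of a group came from separate mice. A p-value here therefore rests on array-to-array spread that may be technical. The arrays were taken as 2 sets: dKO, Ikzf4-/- and WT 1-3 (9 arrays), and Ikzf2-/- and WT 4-6 (6 arrays). The labels do not state this division, and numbering cannot give it, since the arrays of every knockout group are numbered 1 to 3. It was inferred, and the values bear on it: 2 arrays within the larger set held exactly the same log2 signal at 2286 probe sets on average, against 34.4 within the other set and 0.0741 across the sets.

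A mouse that carries a targeted allele also carries the chromosome around it, so genes next to the target can differ between knockout and control mice through linked sequence as well as through the lost protein. Helios, encoded by Ikzf2, is a zinc finger transcription factor of the Ikaros family found in most regulatory T cells. The neighbours have unrelated roles. Acadl encodes the long-chain acyl-CoA dehydrogenase, which starts a round of mitochondrial fatty acid oxidation, and Lancl1 encodes a LanC-like protein that binds glutathione. Rpe encodes ribulose-5-phosphate epimerase of the pentose phosphate pathway, and Atic the enzyme of the final steps of purine synthesis. Kansl1l encodes a relative of the scaffold of the NSL histone acetyltransferase complex, Bard1 the partner of BRCA1 in DNA repair, and Spag16 a protein of the central apparatus of cilia and sperm tails.

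In the reference gene order, counted over protein-coding genes, Rpe, Kansl1l, Acadl and Lancl1 stood 7, 6, 5 and 3 places before Ikzf2. Spag16, Bard1 and Atic stood 1, 3 and 5 places after it. The promoters of Acadl and Lancl1 are printed because these genes were low together in dKO, and that of Kansl1l because it is the coding gene next to Acadl on the far side and showed no such drop. They are RefSeq sequences on GRCm38.p6, from 250 bases before to 50 after the gene's start, all from the minus strand: Acadl at chr1:66863260-66863559, Lancl1 at chr1:67038785-67039084 and Kansl1l at chr1:66817546-66817845. Capitals mark GGGAA, the core that Ikaros family proteins recognise, or its reverse complement.
Acadl: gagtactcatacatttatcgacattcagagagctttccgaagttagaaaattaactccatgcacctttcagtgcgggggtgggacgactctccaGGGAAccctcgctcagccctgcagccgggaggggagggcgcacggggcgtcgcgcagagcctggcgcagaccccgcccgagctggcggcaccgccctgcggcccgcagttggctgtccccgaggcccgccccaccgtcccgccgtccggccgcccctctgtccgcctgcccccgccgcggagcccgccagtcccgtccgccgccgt
Lancl1: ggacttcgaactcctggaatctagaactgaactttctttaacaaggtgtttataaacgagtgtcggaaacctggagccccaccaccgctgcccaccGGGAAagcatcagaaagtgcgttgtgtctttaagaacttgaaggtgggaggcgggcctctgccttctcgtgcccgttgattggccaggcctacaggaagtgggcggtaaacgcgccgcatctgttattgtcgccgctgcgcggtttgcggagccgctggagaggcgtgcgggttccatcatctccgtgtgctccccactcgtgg
Kansl1l: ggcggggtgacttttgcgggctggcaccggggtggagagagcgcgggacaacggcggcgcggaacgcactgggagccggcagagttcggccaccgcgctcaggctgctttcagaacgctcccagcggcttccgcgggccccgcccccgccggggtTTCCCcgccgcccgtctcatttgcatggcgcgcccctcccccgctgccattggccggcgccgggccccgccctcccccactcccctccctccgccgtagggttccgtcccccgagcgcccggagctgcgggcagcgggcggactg
Each held 1 match on either strand. Of 32851 promoters of 300 bases, 62.7% held at least 1, so the match is common and does not set these promoters apart.

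The array signal of Ikzf2 itself was 10.11, 10.16 and 10.59 in dKO on the log2 scale, against 10.49, 10.71 and 10.81 in Ikzf4-/- and 10.46, 10.74 and 10.76 in WT 1-3. The array labelled dKO 3 lay within the WT range. In the other set it was 10.06, 9.14 and 9.22 in Ikzf2-/-, against 10.25, 10.38 and 10.38 in WT 4-6, so all Ikzf2-/- arrays were lower. The labels do not say where the probes lie relative to the deleted part, so this signal does not check them. The Ikzf2-/- change was -0.86 (SE 0.20), with an adjusted p of 0.088 by limma's moderated test with Benjamini-Hochberg adjustment over 10964 genes.

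Acadl was the neighbour with the widest range. Its log2 signal was 5.62, 5.80 and 5.67 in dKO, against 7.25, 7.46 and 7.09 in Ikzf4-/- and 7.44, 7.30 and 7.26 in WT 1-3. Every dKO array lay more than 1 log2 unit below every Ikzf4-/- and WT 1-3 array, while those groups overlapped each other. The dKO level was 0.336 of that in Ikzf4-/- (log2 change -1.57, SE 0.26) and 0.322 of that in WT 1-3 (log2 change -1.64, SE 0.26). Both changes were the 2nd lowest of the 10964 genes tested. The 2 comparisons share the dKO arrays.

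Lancl1 was also low in dKO, by a smaller amount. Its log2 signal was 7.71, 7.26 and 7.46 in dKO, against 8.11, 8.20 and 8.06 in Ikzf4-/- and 7.85, 7.83 and 7.85 in WT 1-3. No dKO array reached the lowest array of the other groups, although dKO 1 lay close to WT 1-3. The change was -0.64 (SE 0.10) against Ikzf4-/-, the 16th lowest of all genes tested, and -0.36 (SE 0.10) against WT 1-3, the 205th lowest. In bulk samples, fewer cells that express a gene and less of its RNA per cell cannot be told apart.

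**Figure D1:**
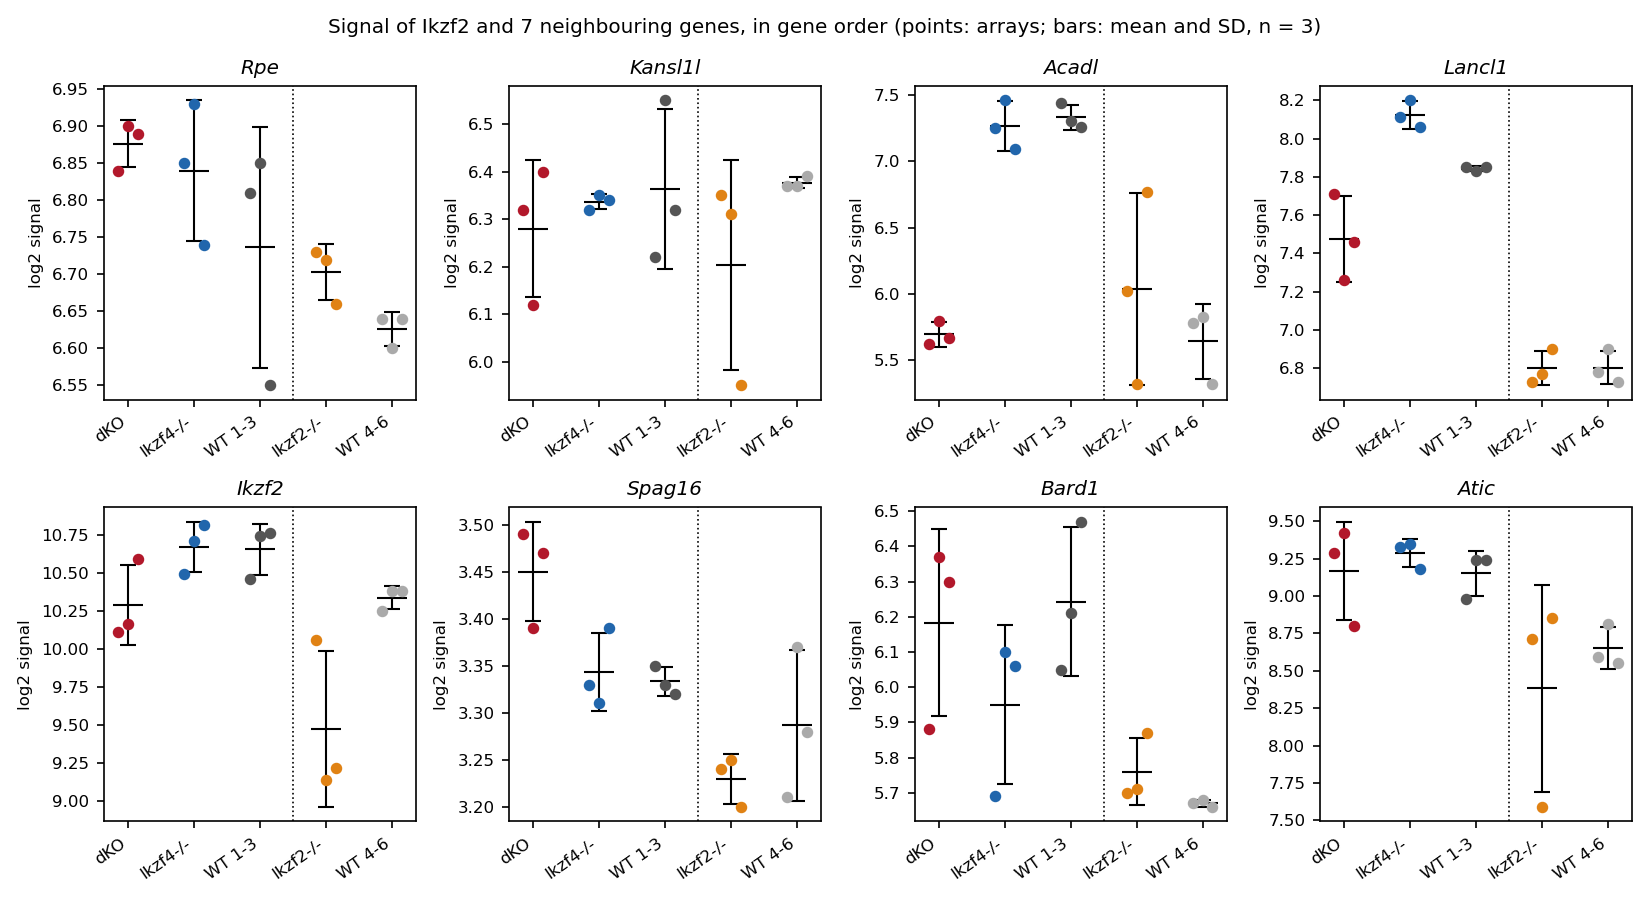
Log2 array signal (vertical axis, own scale in each panel) of Ikzf2 and its 7 neighbours by group, in gene order; points are arrays, bars are the mean and SD of 3 arrays, and the dotted line parts the 2 sets. Acadl and Lancl1 were the tested neighbours whose dKO arrays all lay below the Ikzf4-/- and WT 1-3 arrays, and in Ikzf2-/- both overlapped WT 4-6.

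None of the other neighbours lay wholly lower in dKO. Rpe read 6.84, 6.90 and 6.89 in dKO, 6.85, 6.93 and 6.74 in Ikzf4-/-, and 6.81, 6.85 and 6.55 in WT 1-3. Kansl1l read 6.32, 6.12 and 6.40 in dKO, 6.32, 6.35 and 6.34 in Ikzf4-/-, and 6.22, 6.55 and 6.32 in WT 1-3. Both genes overlapped across all these groups, with changes in dKO of 0.03 and -0.06 against Ikzf4-/- and of 0.14 and -0.08 against WT 1-3 (adjusted p = 1 for each, limma).

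On the other side of Ikzf2, Atic was bright, at 9.29, 9.42 and 8.80 in dKO, against 9.33, 9.35 and 9.18 in Ikzf4-/- and 8.98, 9.24 and 9.24 in WT 1-3. The dKO arrays had the widest spread, with dKO 3 the lowest array and dKO 2 the highest. The change was -0.11 (SE 0.26) against Ikzf4-/-, or 0.07 without dKO 3, and 0.02 against WT 1-3. Bard1, by its brightest probe set, read 5.88, 6.37 and 6.30 in dKO, 5.69, 6.10 and 6.06 in Ikzf4-/-, and 6.05, 6.21 and 6.47 in WT 1-3. The groups overlapped, and the changes of 0.23 (SE 0.14) and -0.06 had opposite signs. Spag16 was dim in every array, at 3.20 to 3.49, and did not pass the filter on low signal, so it was not tested. Its percentile within an array averaged 15.8 in dKO, 12.9 in Ikzf4-/- and 12.5 in WT 1-3. At this low signal the dKO ranks lay wholly above those of both groups, by 2.94 and 3.34 points on average. The share of all genes with dKO ranks wholly above was not counted, so nothing is read from this.

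Of the 6 neighbours tested, 0 passed an adjusted p of 0.05 for dKO against Ikzf4-/-, where 3 of 10964 genes did (0.0274%). In a fit to the 9 arrays of that set alone, Acadl passed with the replicate number as a block and without it. Against WT 1-3, 1 of 6 passed, Acadl, where 7 genes did (0.0638%), and this call was kept with an array left out only when that array was Ikzf2-/- 2 or Ikzf2-/- 3. Acadl and Lancl1 were among the 152 genes (1.39%) whose 3 dKO arrays all lay below all 6 Ikzf4-/- and WT 1-3 arrays. Since both were chosen on these contrasts, nothing is read from these counts.

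The values of Ikzf2-/- and WT 4-6 enter no dKO change, although all 15 arrays set the shared estimate of spread and so the SE. Acadl read 6.02, 5.32 and 6.77 in Ikzf2-/-, against 5.78, 5.83 and 5.32 in WT 4-6. The groups overlapped, and Ikzf2-/- spread over more than a log2 unit. The change was 0.40 (SE 0.26, 95% interval -0.16 to 0.95 for this gene alone, adjusted p = 0.483 by limma). That SE pools all groups, while the SD of Acadl was 0.72 in Ikzf2-/-, 0.28 in WT 4-6 and 0.09 in dKO. The interval may therefore be too narrow for Ikzf2-/-, and it is not set against the dKO change, on which Acadl was chosen. The change in Ikzf2-/- was 0.03 without Ikzf2-/- 3, the array of that set with the highest Acadl signal, and 0.75 without Ikzf2-/- 2.

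The array Ikzf2-/- 3 also had the highest mean of B cell markers, 7.70 on the log2 scale, against 5.75 and 4.94 in the other Ikzf2-/- arrays and 5.09 to 5.28 in WT 4-6. Its neutrophil marker mean was 8.53, against 6.55 and 6.04 in the other Ikzf2-/- arrays and 5.06 to 5.61 in WT 4-6. In the larger set the dKO arrays had B cell means of 4.46 to 4.49, and WT 1 stood at 6.65 with a neutrophil mean of 6.84. The part of other cells in the Acadl value of Ikzf2-/- 3 was not tested. Regulatory T cell markers, Ikzf2 among them, averaged 9.75 in Ikzf2-/- 2, against 10.41 and 10.15 in the other Ikzf2-/- arrays and 10.28 to 10.33 in WT 4-6. The array Ikzf2-/- 2 also had the lowest limma array weight of the 15, 0.127, and its part in the Acadl and Atic values was not tested beyond leaving it out. Without WT 1, the change in dKO against WT 1-3 was of like size, at -1.58 for Acadl and -0.36 for Lancl1.

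Lancl1 read 6.73, 6.77 and 6.90 in Ikzf2-/-, against 6.78, 6.90 and 6.73 in WT 4-6, which is the same range. Its change was 0.00 (SE 0.10, 95% interval -0.22 to 0.22, adjusted p = 0.994). Rpe read 6.66 to 6.73 in Ikzf2-/-, against 6.60 to 6.64 in WT 4-6, a change of 0.08 (adjusted p = 0.695). Kansl1l read 5.95 to 6.35 in Ikzf2-/- and 6.37 to 6.39 in WT 4-6 (change -0.17, adjusted p = 0.489). The Ikzf2-/- arrays were thus all higher for Rpe and all lower for Kansl1l. The share of all genes with arrays apart in this comparison was not counted, so nothing is read from this. Atic read 8.71, 7.59 and 8.85 in Ikzf2-/-, against 8.59, 8.81 and 8.55 in WT 4-6 (change -0.27, adjusted p = 0.648). The low value was that of Ikzf2-/- 2, without which the change was 0.13.

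The probe sets of Bard1 did not agree in Ikzf2-/-. The brightest gave 5.70 to 5.87 in Ikzf2-/- and 5.66 to 5.68 in WT 4-6, all higher in Ikzf2-/-, with a change of 0.09 (adjusted p = 0.798). The next gave 5.47, 6.48 and 5.75 in Ikzf2-/-, against 5.18, 5.15 and 5.29 in WT 4-6, a change of 0.70 (SE 0.21) that did not pass (adjusted p = 0.184). All Ikzf2-/- arrays were higher in it, with Ikzf2-/- 2 the highest. That array had the lowest limma array weight, 0.127, and no fit without it was made for this probe set. The share of all probe sets with arrays apart in this comparison was not counted, so nothing is read from these separations. The third probe set lay between 4.62 and 4.96 in all 15 arrays. By the brightest probe set of each, 0 of the 6 neighbours tested passed in Ikzf2-/- against WT 4-6, and 0 had an unadjusted p under 0.05. Over all genes, 7 of 10964 passed (0.0638%) and 1794 had an unadjusted p under 0.05. The second Bard1 probe set, outside this count, had an unadjusted p of 0.00567 by limma in a fit of every probe set.

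**Figure D2:**
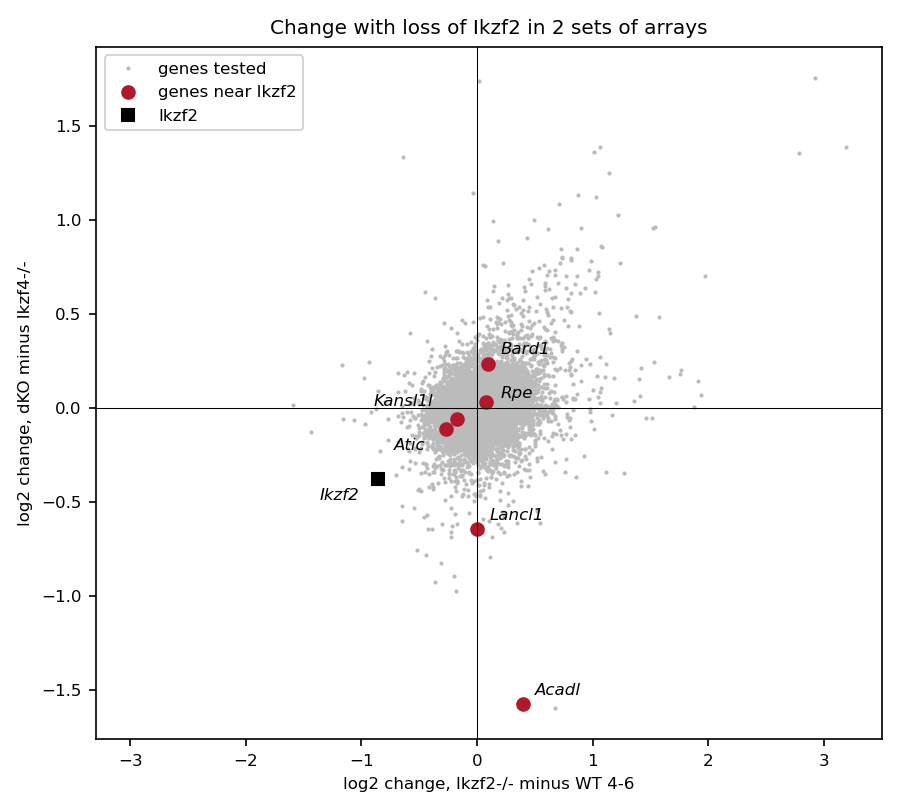
Log2 change with loss of Ikzf2 in each set of arrays: Ikzf2-/- minus WT 4-6 across, dKO minus Ikzf4-/- up, for 10964 genes tested (grey), 6 neighbours of Ikzf2 (red) and Ikzf2 (black square). Acadl and Lancl1 lay far below 0 in dKO and at 0.40 and 0.00 in Ikzf2-/-, while Ikzf2 was below 0 on both axes.

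The difference between these changes was taken in the same fit. For Acadl the change with Ikzf2 loss was lower in dKO than in Ikzf2-/- by a log2 difference of -1.97 (SE 0.37), and for Lancl1 by -0.64 (SE 0.15). Part of this contrast is the one they were selected on, so these are descriptions. Of the 6 neighbours, 0 passed, as did 0 of 10964 genes (0.0%), with 690 genes at an unadjusted p under 0.05.

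In Ikzf4-/-, where the Ikzf2 locus was not targeted, none of the 6 neighbours passed against WT 1-3, and no gene did (0 of 10964, 0.0%; 239 at an unadjusted p under 0.05, limma). Acadl differed by -0.06 (SE 0.26, adjusted p = 1). Lancl1 was higher in all 3 Ikzf4-/- arrays than in any WT 1-3 array, by 0.28 (SE 0.10, adjusted p = 1, unadjusted 0.0176). The 2 dKO changes of Lancl1 differ by this amount. The share of all genes with arrays apart in Ikzf4-/- against WT 1-3 was not counted, so nothing is read from the separation of Lancl1.

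The window of 25 protein-coding genes on either side of Ikzf2 held 50 genes, of which 23 had enough signal to be tested. Of these, 3 differed by 0.5 or more in dKO against Ikzf4-/-, where 141 of 10964 genes did: Cxcr2, and Acadl and Lancl1, which were chosen on this contrast. Cxcr2, a neutrophil chemokine receptor, had a log2 change of 0.76 in dKO against Ikzf4-/- and of -1.26 in Ikzf4-/- against WT 1-3 (adjusted p = 1 for each). The neutrophil marker mean was highest in WT 1 within that set, and its part in the Cxcr2 values was not tested. The median absolute change of the window was 0.07, or 0.06 without Acadl and Lancl1, against 0.07 over all genes. In the next genes out to 100 places it was also 0.07, over 81 genes tested.

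**Figure D3:**
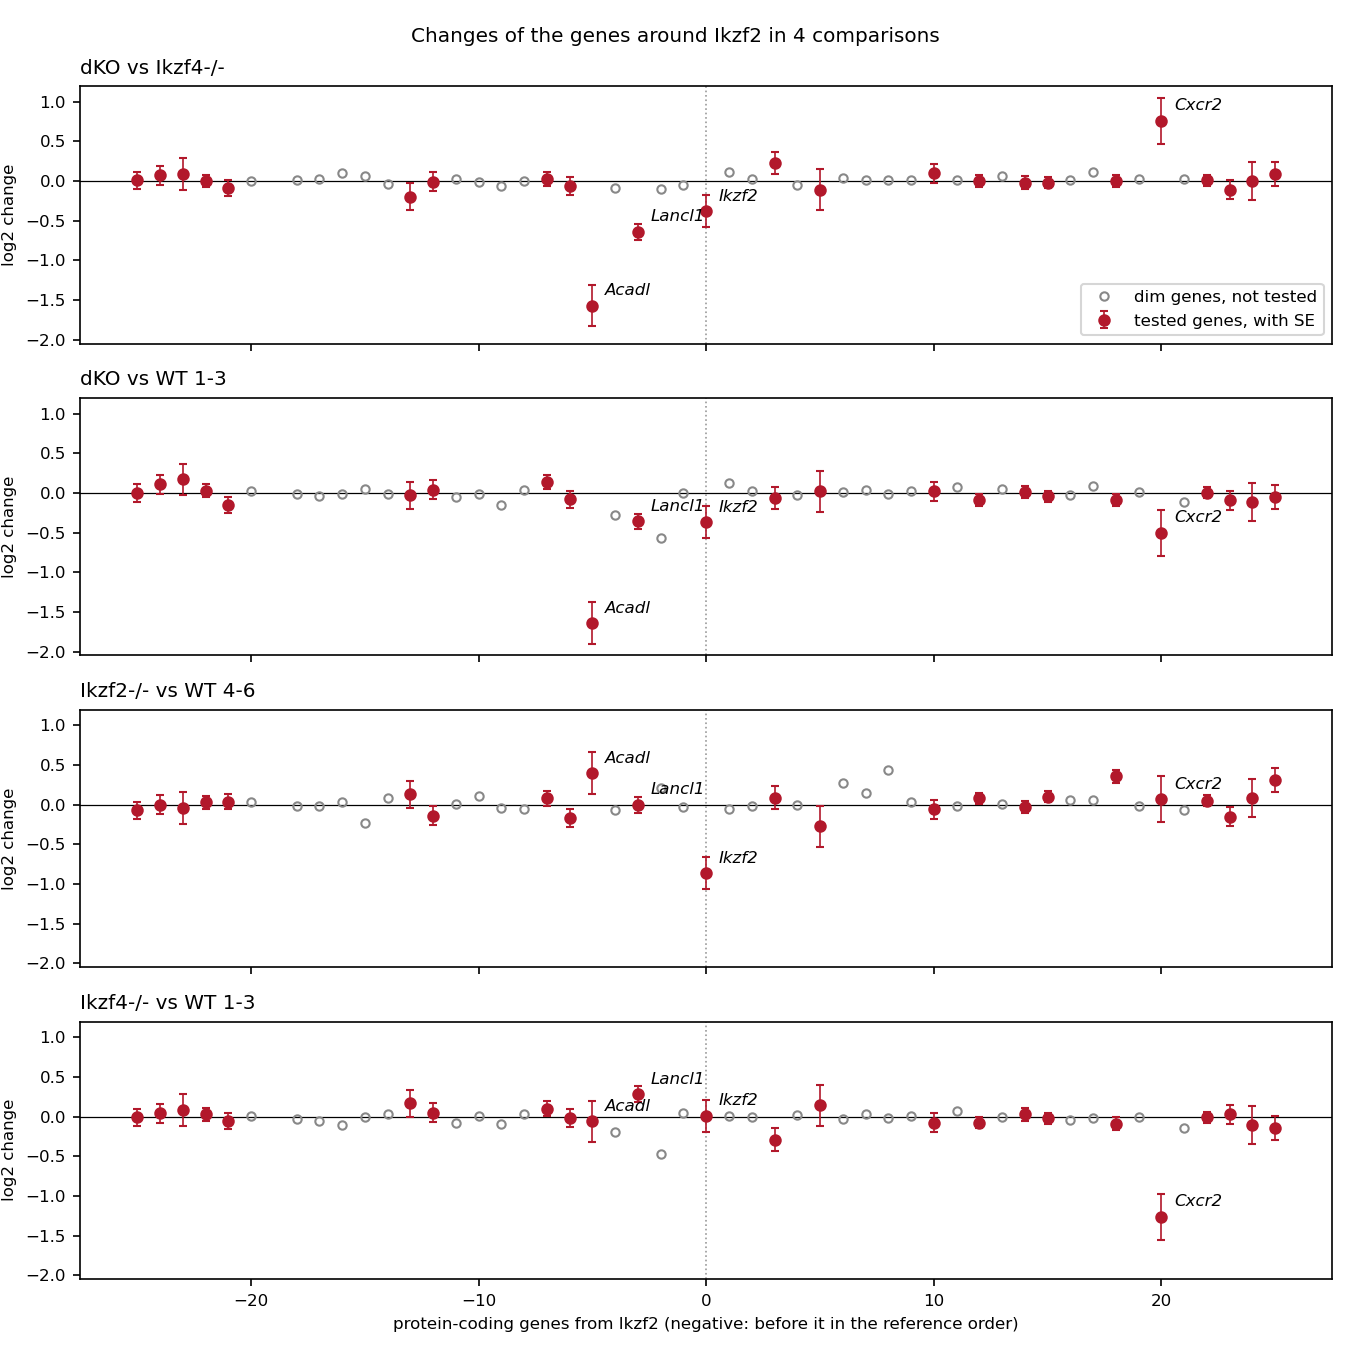
Log2 change (vertical axis) of the genes within 25 protein-coding genes of Ikzf2 by their place in the reference order (horizontal axis), in 4 comparisons, with the group named before vs as the numerator; filled points are tested genes with SE, hollow points are dim genes. Acadl and Lancl1 lay below 0 in both dKO comparisons, on which they were chosen. Rpe and Kansl1l lay near 0 there, and in Ikzf2-/- Acadl and Lancl1 were at 0.40 and 0.00.

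In Ikzf2-/- against WT 4-6 no tested gene of the window differed by 0.5 or more apart from Ikzf2, counting only the brightest probe set of each gene. Over all genes 408 of 10964 did, so a count of 0 among 23 genes is read as no result. The second Bard1 probe set, not counted here, differed by 0.70 (SE 0.21). Tns1, which encodes the focal adhesion protein tensin, came nearest to passing at 0.36 (adjusted p = 0.0824), followed by Pnkd at 0.31 (adjusted p = 0.328). Around Ikzf4, 34 genes were tested in a window counted the same way. In Ikzf4-/- against WT 1-3 their median absolute change was 0.08, none passed, and 1 differed by 0.5 or more, Cd63, a tetraspanin of endosomes. Over all genes the median absolute change was 0.06, and 119 of 10964 differed by 0.5 or more, so nothing is read from this count.

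More genes passed between the WT arrays of the sets than in any knockout comparison. WT 4-6 against WT 1-3 had 7035 genes past the threshold (64.2%), 612 higher and 6423 lower, with a median change of -0.38. After quantile normalization over all 15 arrays the split was 1313 higher and 2700 lower, with a median of -0.10. The 2 WT sets are confounded with whatever else differed between the sets, which cannot be told apart here. Relative to the median, WT 4-6 were lower for Acadl by a log2 difference of -1.31 and for Lancl1 by -0.66. The same relative difference was -0.19 for Bard1, -0.11 for Atic, 0.27 for Rpe and 0.40 for Kansl1l. Acadl and Lancl1 were chosen as low in dKO against arrays that include WT 1-3, so their values here are descriptions too. Of 6 neighbours 3 passed, Acadl, Lancl1 and Bard1, beside 64.2% of all genes. After quantile normalization 3 passed as well, but these were Acadl, Lancl1 and Kansl1l, and Bard1 did not.

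In the window, 12 of 23 genes tested passed in WT 4-6 against WT 1-3, beside 64.2% of all genes, so the count is not read as a result about the window. Besides Acadl, Lancl1 and Bard1, these were 9 further genes. Aamp (-1.28), Tns1 (-0.87), Idh1 (-0.61), Pnkd (-0.55), Smarcal1 (-0.49), Creb1 (-0.40), Pikfyve (-0.39) and Rpl37a (-0.26) were lower, and Igfbp2 (0.28) was higher. Acadl and Lancl1, at -1.69 and -1.04, had 2 of the 3 lowest values among them, again as a description, since WT 1-3 entered their choice.

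Ranks within an array do not depend on its scaling. A probe set's percentile among all 35556 of its array was 59.0 ± 1.04 for Acadl in dKO, 76.8 ± 1.97 in Ikzf4-/-, 77.5 ± 0.942 in WT 1-3, 65.3 ± 9.08 in Ikzf2-/- and 60.3 ± 3.95 in WT 4-6 (SD, n = 3 each). Ranks of dKO overlapped those of WT 4-6 and of Ikzf2-/-, and lay apart from those of Ikzf4-/- and WT 1-3. The ranks of Ikzf2-/- also overlapped those of WT 4-6, and all lay below those of WT 1-3. For these pairs of groups the share of all genes with ranks apart was not counted, so nothing is read from the separations. The mean Acadl rank of WT 4-6 was 1.28 points from that of dKO and 17.2 points below that of WT 1-3. Ranks remove only the scaling of an array, and the sets are confounded with whatever else differed between them. Ranks of different sets therefore cannot be read as the same or different levels in the cells.

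Lancl1 was at percentile 78.9 ± 2.39 in dKO, 85.4 ± 0.567 in Ikzf4-/-, 82.9 ± 0.457 in WT 1-3, 75.1 ± 1.27 in Ikzf2-/- and 75.4 ± 0.731 in WT 4-6 (SD, n = 3 each). Here the dKO ranks stood between the sets. They were below those of Ikzf4-/- and WT 1-3 and above those of Ikzf2-/- and WT 4-6, with no overlap. Ikzf4-/- was above WT 1-3, and Ikzf2-/- overlapped WT 4-6. The share of all genes with ranks apart was counted only between the WT sets, so nothing is read from these separations. As for Acadl, ranks of different sets cannot be read as the same or different levels in the cells.

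**Figure D4:**
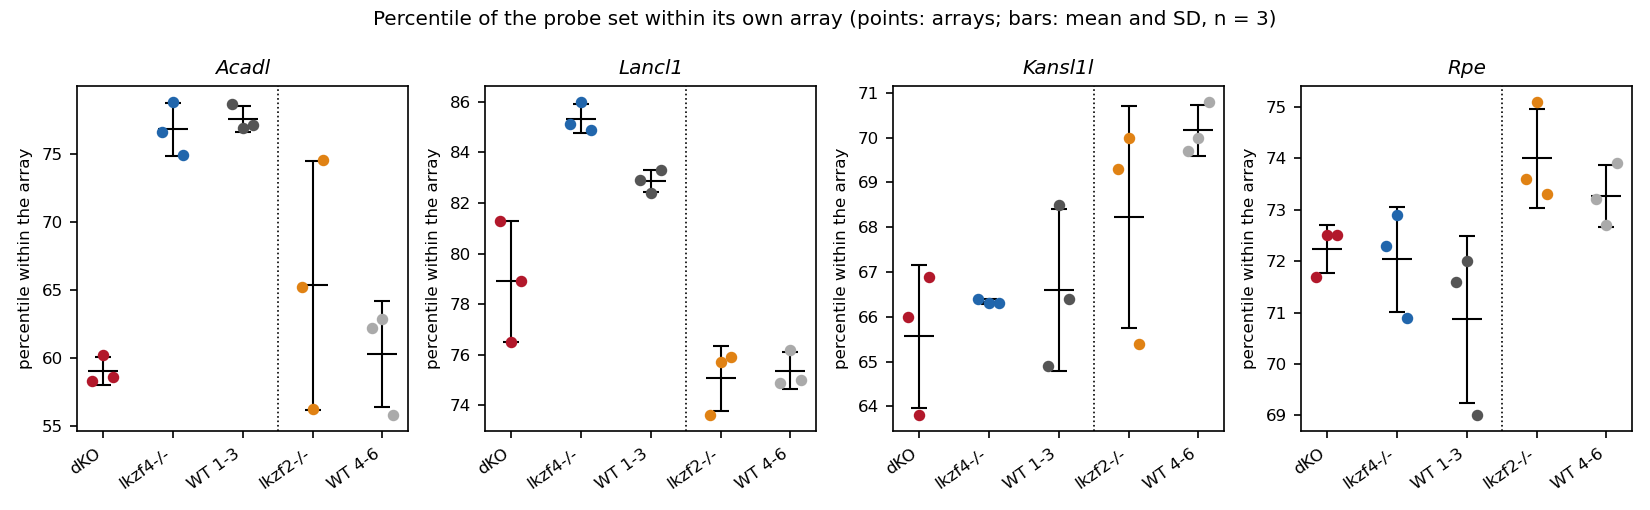
Percentile of the probe set among all probe sets of its own array (vertical axis, own scale in each panel) for Acadl, Lancl1, Kansl1l and Rpe; points are arrays, bars are the mean and SD of 3 arrays, and the dotted line parts the 2 sets. Acadl in dKO (59.0) overlapped WT 4-6 (60.3), and Lancl1 in dKO (78.9) lay between WT 1-3 (82.9) and WT 4-6 (75.4). Ranks across the dotted line are confounded with whatever else differed between the sets.

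Between the WT sets, Acadl had the 58th lowest rank difference of 10964 genes (0.529% at or below it) and Lancl1 the 810th (7.39%). Since WT 1-3 also entered the contrasts on which both genes were chosen, these places are descriptions. The median over all genes was -0.853 points, with the 5th and 95th percentiles at -8.74 and 6.22. Bard1 differed by -4.28 points, Atic by -0.579, Rpe by 2.36, Kansl1l by 3.60 and Ikzf2 by -0.0103. The ranks of 5 of the 6 neighbours did not overlap between WT 4-6 and WT 1-3, against 56.3% of all genes. For Acadl, Lancl1 and Bard1 WT 4-6 lay wholly below, as they did for 37.7% of all genes, and for Rpe and Kansl1l wholly above. Ranks move less for bright genes such as Ikzf2 and Atic, so points are not comparable between genes of different brightness.

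**Figure D5:**
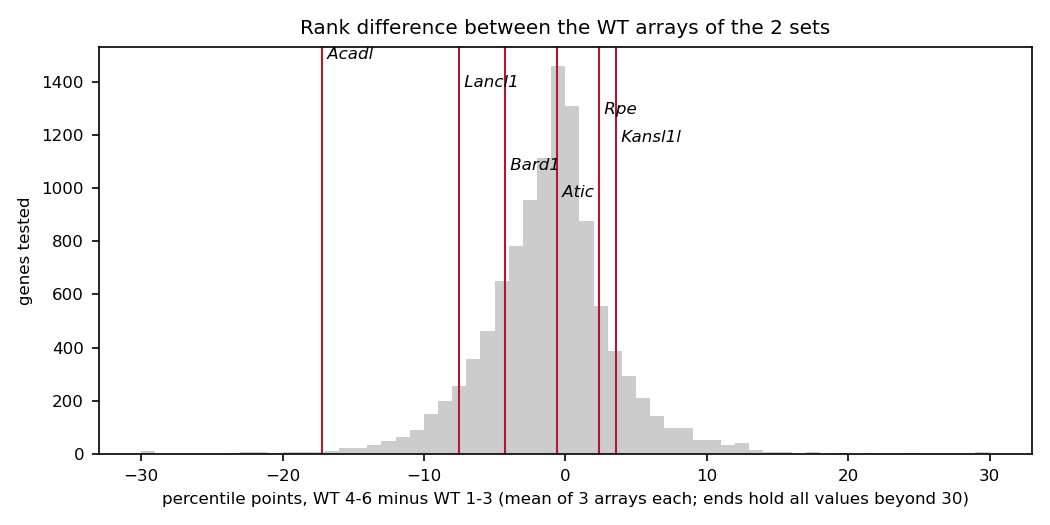
Number of genes tested (vertical axis) by rank difference in percentile points, WT 4-6 minus WT 1-3 (horizontal axis), with 6 neighbours of Ikzf2 marked by red lines. Acadl, at -17.2, lay beyond the 5th percentile of all genes (-8.74), Lancl1 lay at -7.54, and Rpe and Kansl1l lay above 0. WT 1-3 also entered the contrasts on which Acadl and Lancl1 were chosen.

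Across the 9 arrays of the larger set, Acadl and Lancl1 had a Pearson correlation of 0.802, and across the 6 arrays of the other set 0.631. These arrays share groups and a set, and both genes were chosen as low in the dKO arrays among the 9, so the values are descriptions. Over the 6 arrays Acadl had a correlation of 0.84 with Bard1, 0.634 with Atic, -0.011 with Rpe and -0.826 with Kansl1l. The value of 0.631 with Lancl1 was thus not particular to that pair. The genes most like Acadl over the 9 arrays were Ncln (0.958), Pde7a (0.954), Sidt1 (0.936), Il18r1 (0.907) and Wwp1 (0.907). Of these only Ncln was positively correlated over the 6 arrays of the other set, at 0.399. Those most like Lancl1 were Sat1 (0.966), Golim4 (0.936), Tnfaip8l1 (0.935), Vps72 (0.935) and Ogg1 (0.925). Among these 10 genes, Il18r1 alone lies on chromosome 1, which holds 5.59% of all genes tested, so nothing is read from this count.

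Lists of other genes from the neighbours' pathways were counted in the 4 knockout comparisons, in which 0.0% to 0.0638% of all genes passed, so a count of 0 in them is read as no result. Of 23 tested genes of fatty acid beta-oxidation other than Acadl, 0 passed in dKO against Ikzf4-/-, in dKO against WT 1-3, in Ikzf2-/- against WT 4-6 or in Ikzf4-/- against WT 1-3. Their median changes were 0.01, -0.02, 0.06 and -0.04 in that order, beside 0.00, 0.00, 0.02 and 0.01 over all genes. Acads, the short-chain dehydrogenase, differed by -0.14 in dKO against Ikzf4-/- and by -0.33 (SE 0.09) against WT 1-3 (adjusted p = 1 and 0.668). Acaa2, the thiolase that ends a round of oxidation, differed by -0.48 in dKO against WT 1-3 (SE 0.13, adjusted p = 0.629). Its difference was -0.13 in dKO against Ikzf4-/- and -0.35 in Ikzf4-/- against WT 1-3 (SE 0.13, adjusted p = 1).

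None of 8 tested genes of the LanC-like and glutathione list passed in the same 4 comparisons. The nearest was Gpx4, a glutathione peroxidase that reduces lipid peroxides, at 0.40 in Ikzf2-/- against WT 4-6 (SE 0.08, adjusted p = 0.0727). The same held for 11 genes of purine synthesis, 7 of the pentose phosphate pathway, 9 of the NSL complex and 8 of BRCA1-BARD1 repair, none of which passed. Of 8 genes of the ciliary central apparatus, 1 was bright enough to test, and it did not pass.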

How the data were processed

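Total RNA (15 ng per array) was amplified and hybridised to mouse whole-transcript arrays. The authors deposited log2 signals, made with RMA in Affymetrix Expression Console 1.3.1 per the submitters' processing notes. Neither a genome build for the array design nor a probe position is given in the sources used here. Array medians were 4.82 to 5.01, and the number of arrays, 3 in a group, limits the precision. Of 35556 probe sets, 21789 carried 1 gene symbol, 1621 several and 12146 none here; 21698 matched the RefSeq table (GRCm38.p6) by Entrez ID. Each gene was represented by its probe set of highest mean, and genes were tested if any group mean exceeded 4.96, the median over all probe sets, 10964 in all.

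limma 3.58.1 in R 4.3.3 (lmFit, eBayes) was fitted with 5 group means over all 15 arrays (10 residual and 3.72 prior degrees of freedom), with Benjamini-Hochberg adjustment over all genes tested and a threshold of 0.05. An exact permutation of 3 arrays against 3 cannot give a two-sided p below 0.1, so ranks have no test. The script was tested on simulated data. The members and lists were chosen with earlier results of these data known. Named were the 7 neighbours, Ikzf2, Ikzf4, genes of the window of 25 either side that passed or had the smallest p, list genes with the smallest p, and the 5 genes most like Acadl and Lancl1. The window was planned over all genes of the reference table, which left 7 tested genes; counting it over protein-coding genes, and fitting every probe set of Bard1 and Spag16, was chosen after seeing the data.

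Same-numbered arrays deviated together, with correlations of 0.428, 0.196 and 0.267 between dKO and Ikzf4-/- and of 0.138, 0.217 and 0.303 between Ikzf4-/- and WT. Those between dKO and WT were 0.0708, 0.045 and 0.173. The main fit used no block. A fit to the 9 arrays of the larger set with the replicate number as a block was run for each of these comparisons, dKO against WT 1-3 included. Ikzf2-/- and WT 4-6 share no numbers. Ikzf4 read 8.07 to 8.20 in dKO and 8.13 to 8.22 in Ikzf4-/-, against 7.83 to 8.07 in WT 1-3, and so was not lower where it was targeted. Settings changed in turn were the filter, normalization, array weights, probe sets, arrays in the fit, the replicate block and each array.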

Additional observations from a re-analysis of the deposited data

How the results depend on the processing

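The count of neighbours past the threshold was 0 for dKO against Ikzf4-/-. It was 2 (Acadl and Lancl1) with the stricter filter, with array weights and with the mean of a gene's probe sets. It was 1 (Acadl) with only the groups compared, without both WT 1 and Ikzf2-/- 3, and with the 9-array set alone, both with the replicate block and without it, the last chosen after seeing the data. Leaving out 1 array gave 0 to 2: 1 without dKO 1 (Lancl1), 1 without Ikzf2-/- 3 (Acadl) and 2 without Ikzf2-/- 2. For dKO against WT 1-3 the count of 1 became 0 without the filter, with quantile normalization, with equal array medians and with all 6 WT arrays pooled, and 0 to 1 with an array left out. Acadl stayed between -1.69 and -0.79 there, and Lancl1 between -0.48 and 0.16, the highest values being those with WT pooled. For the difference between the effects of Ikzf2 loss the count of 0 became 1 (Acadl) with array weights, and 0 to 1 with an array left out (1 without Ikzf2-/- 2). Neither gene passed for Ikzf2-/- against WT 4-6 in any of 24 settings, with Acadl between -0.45 (WT pooled) and 0.75. On the 9 arrays the replicate block itself changed no count of neighbours. The cause of these shifts was not tested.

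Over all genes, the 3 calls for dKO against Ikzf4-/- became 0 without the filter, with quantile normalization and with equal medians, 6 with the stricter filter, 21 with array weights, 7 with mean probe sets, 1 with only these groups, 2 with the block, 1 with the 9-array set alone and 0 to 11 with an array left out. The 7 for dKO against WT 1-3 became 0 without the filter and with equal medians, 2 with quantile normalization, 21 with array weights, 1 with only these groups and with the block, 5 with the 9-array set alone, 4 with WT pooled, 2 without both WT 1 and Ikzf2-/- 3, and 0 to 9 with an array left out. The 7 for Ikzf2-/- against WT 4-6 became 2 without the filter, 20 with quantile normalization, 1 with equal medians, 64 with array weights, 0 with only these groups and with WT pooled, 3 without both arrays, and 0 to 409 with an array left out (409 without Ikzf2-/- 1, 167 without Ikzf2-/- 2). The 7035 for WT 4-6 against WT 1-3 were 4013 after quantile normalization. The difference between effects gave 1 with array weights and without both arrays, and 0 to 4 with an array left out. For Ikzf4-/- against WT 1-3 leaving out an array gave 0 to 1.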
